A study of Mus musculus with 8 samples.

Results

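Desmosomes are the spot-like junctions that tie the keratin filaments of neighbouring epithelial cells together, and 10 genes that encode their parts were followed here through 4 states of the thymic epithelial cell (TEC), the epithelial cell that supports T cell development. The genes are named for their place in the junction, and no threshold on their values was used: the cadherins Dsg2, Dsg3, Dsc2 and Dsc3, the plaque genes Dsp, Jup, Pkp1, Pkp2 and Pkp3, and the membrane protein gene Perp. They are 10 of the 56923 genes counted in the series, and all 10 passed the filter on low counts that left 14504 genes to test.

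TECs came from thymi of wild-type C57BL/6J mouse embryos at E16.5 and were sorted for the epithelial surface protein EpCAM, and no group carried a genetic change. One group was lysed straight after the sort (in vivo TECs). A second grew on laminin-coated plates until confluent, after 3 days (2D-cultured TECs), and the other two grew as organoids in growth-factor-reduced Matrigel and were lysed on day 3 (D3 organoids) or day 7 (D7 organoids). Both kinds of culture used the same TEC medium with FGF7. The organoids had the ROCK inhibitor thiazovivin at the start, and the paper does not say whether the 2D cultures did. Thiazovivin was also in the medium that received the cells from the sorter. Each group had 2 libraries, which the labels call biological replicates. A p-value here sets a difference between groups against the spread between libraries of the same group. With 2 against 2, an exact two-sided permutation test cannot go below p = 0.333, and the test used instead takes its spread from all genes and groups.

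Total counts lay between 5084715 and 7612532 per library, and 16748 to 19943 genes had at least 1 count. Genes of ribosomal RNA took 22.7% to 29.4% of the counts. The TEC identity genes Epcam, Cdh1, Krt8, Krt18 and Foxn1 had counts in every group and summed to 2906 to 3196 CPM in vivo, 6232 to 6938 in 2D, 1424 to 1495 in D3 organoids and 1576 to 1660 in D7 organoids. CPM values are counts rescaled to a common library size. These sums do not track each gene. In 2D against in vivo TECs, 4 of the 5 genes rose and Foxn1 fell. The largest part of the sum in 2D was Krt18, at 3597 and 3157 CPM. Foxn1 was at 224 and 274 CPM in vivo and 8.55 and 4.83 CPM in 2D. In organoids, Foxn1 was at 8.79 and 9.65 CPM on day 3 and 60.7 and 85.2 CPM on day 7. Mesenchyme markers (7 genes) summed to 17.9 to 79.5 CPM, highest in D7 organoids, and endothelial, erythroid and myeloid markers to at most 12.3 CPM each. The libraries also differed in other cell types and TEC subtypes. Summed over 8 thymocyte markers, in vivo TECs had 292 to 663 CPM, against 2.55 to 9.89 CPM in the 6 cultured libraries. The 9 cortical TEC markers summed to 8630 to 8885 CPM in vivo and to 446 to 1230 CPM in culture, and the 10 medullary TEC markers to 3232 to 3372 CPM in 2D against 198 to 408 CPM in the other groups. That sum in 2D came from Krt5, Krt14, Cldn3, Cldn4 and Ccl21a, which rose there, while Tnfrsf11a and Cd40 fell and Aire and Fezf2 were at 0 CPM in 2D. In bulk samples, fewer cells of a type and less RNA per cell cannot be told apart, and the part of these shifts in the values of the desmosome genes was not tested.

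A desmosome joins cells through the outer domains of 2 kinds of cadherin, the desmogleins (Dsg genes) and the desmocollins (Dsc genes). Inside the cell, plakoglobin (Jup) and the plakophilins (Pkp1, Pkp2 and Pkp3) bind the cadherin tails and recruit desmoplakin (Dsp), which holds the keratin filaments. Dsg2, Dsc2 and Pkp2 are widespread and also serve simple epithelia and heart muscle, whereas Dsg3, Dsc3 and Pkp1 are typical of stratified epithelia such as skin.

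The members lie on 7 chromosomes in GRCm39. Pkp1 (ENSMUSG00000026413) spans chr1:135799133-135846945 on the minus strand, Pkp3 (ENSMUSG00000054065) chr7:140658040-140670423 on the plus strand, Perp (ENSMUSG00000019851) chr10:18720715-18732821 on the plus strand and Jup (ENSMUSG00000001552) chr11:100259784-100291103 on the minus strand. Dsp (ENSMUSG00000054889) spans chr13:38335230-38382553 and Pkp2 (ENSMUSG00000041957) chr16:16031144-16090586, both on the plus strand. The 4 cadherin genes form a cluster on chromosome 18, in which Dsc3 (ENSMUSG00000059898, 20093987 to 20135408) and Dsc2 (ENSMUSG00000024331, 20163675 to 20192717) lie on the minus strand and Dsg3 (ENSMUSG00000056632, 20643331 to 20680516) and Dsg2 (ENSMUSG00000044393, 20691074 to 20737581) on the plus strand. Of the 50-base words in the 3′ ends of their transcripts, 1.67% were shared with another gene for Jup, 0.277% for Dsg2 and none for the other 8. Annotated transcripts overlap 7 of the members, and those present in the files had 0 to 9 counts per library.

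Promoter sequences are shown for Jup and Dsp, the plaque genes for plakoglobin and desmoplakin. They were taken because RefSeq windows were at hand for only these 2 of the 10 members. Each line gives the 250 bases before the start of the gene, 5′ to 3′ on the gene's own strand, in the RefSeq build GRCm38.p6, which is not the build of the counts. Capitals mark GGGCGG on either strand, the core of a GC box.

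Jup, chr11:100397791-100398040, minus strand: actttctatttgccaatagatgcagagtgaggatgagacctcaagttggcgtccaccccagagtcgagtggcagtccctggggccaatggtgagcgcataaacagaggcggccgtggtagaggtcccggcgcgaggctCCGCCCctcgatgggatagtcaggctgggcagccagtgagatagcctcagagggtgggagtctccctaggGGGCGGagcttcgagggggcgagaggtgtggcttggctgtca

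Dsp, chr13:38151044-38151293, plus strand: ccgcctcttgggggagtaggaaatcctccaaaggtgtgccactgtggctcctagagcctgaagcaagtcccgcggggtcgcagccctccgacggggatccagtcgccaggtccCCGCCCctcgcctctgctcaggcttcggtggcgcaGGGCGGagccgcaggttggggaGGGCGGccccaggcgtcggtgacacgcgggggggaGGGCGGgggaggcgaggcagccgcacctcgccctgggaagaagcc

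The Dsp window had 4 GC-box cores (137, 102, 80 and 45 bases before the start) and 72.4% GC, and the Jup window had 2 (112 and 42 bases before it) and 62.0% GC. Of 32851 mouse windows of this length, 32.7% held the core on either strand, and the median GC content was 52.4%. Neither window held TGANTCA (6.75% of all windows), CAGGTG (17.2%), GGAATG (12.6%) or ACCGGTT (0.831%), each searched on both strands. These matches are letters in a window and bear on no factor's binding.

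Against in vivo TECs, all 10 members passed the threshold in 2D-cultured TECs, 7 higher and 3 lower, and their 2D and in vivo libraries overlapped for none. Pkp2 is among the 7, and with 0 and 7 counts in vivo it passed the filter on low counts through cultured libraries alone. With only the 2D and in vivo libraries it failed that filter, so its call adds no separate support. Over all genes tested, 41.6% passed in this comparison (19.9% higher and 21.7% lower) and 69.5% had groups that did not overlap. The median log2 fold change was 0.95 over the members and -0.06 over all genes. Dsg3, Pkp1, Pkp2, Jup, Perp, Dsg2 and Pkp3 rose and Dsc2, Dsc3 and Dsp fell. The change was therefore of mixed sign within both the cadherins and the plaque. Levels of each gene follow by role, as CPM in replicate 1 and replicate 2. Differences between groups are log2 fold changes unless given as folds, with adjusted p-values from edgeR's quasi-likelihood test.

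**Figure D1:**
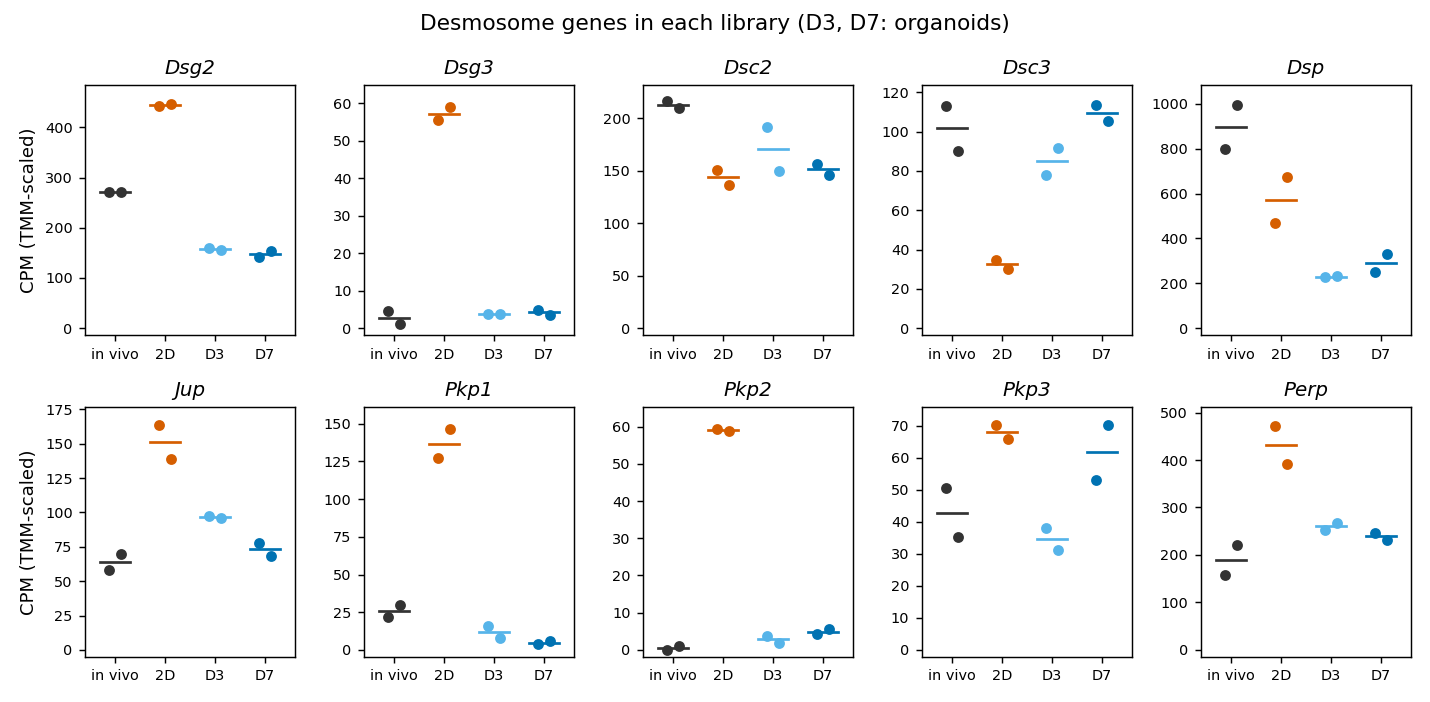
CPM of the 10 desmosome genes in each library, 1 panel per gene with its own linear axis; points are the 2 libraries of a group and the short line is their mean. Dsg3, Pkp1 and Pkp2 stood far higher in 2D than elsewhere, Dsp was highest in vivo, and Dsc3 was lowest in 2D.

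Dsg2, the desmoglein of all desmosome-bearing tissues, was at 270.7 and 270.8 CPM in vivo, 442 and 446 CPM in 2D, 159 and 155 CPM in D3 organoids, and 143 and 155 CPM in D7 organoids. The 2D libraries were the highest, the organoid libraries the lowest, and in vivo TECs lay between them without overlap. Dsg2 rose in 2D by 0.72 (SE 0.14, adjusted p = 0.00056) and fell by 0.78 in D3 organoids (SE 0.14, adjusted p = 0.00042) and by 0.87 in D7 organoids (SE 0.14, adjusted p = 0.00015) against in vivo TECs. Between the 2 days of organoid culture, the difference was -0.08 (95% interval -0.38 to 0.22, adjusted p = 0.74).

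Dsg3, the desmoglein of basal layers in stratified epithelium and the target of antibodies in pemphigus vulgaris, was at 4.53 and 1.13 CPM in vivo (26 and 8 counts), 55.5 and 58.8 CPM in 2D, 3.72 and 3.77 CPM in D3 organoids, and 4.84 and 3.56 CPM in D7 organoids. The 2D libraries stood apart, and the other 6 overlapped between groups. Against in vivo TECs, Dsg3 rose 20.9-fold in 2D (log2 4.39, SE 0.41, adjusted p = 1.3e-07). The size of this change rested on the in vivo libraries, being 5.64 without replicate 1 and 3.66 without replicate 2. In organoids it was 0.46 (95% interval -0.53 to 1.45, adjusted p = 0.51) on day 3 and 0.65 (-0.32 to 1.62, adjusted p = 0.3) on day 7. Without in vivo replicate 1 these 2 differences passed the threshold (1.71, adjusted p = 0.021, and 1.90, adjusted p = 0.0096), and without replicate 2 they changed sign.

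Dsc2, the widely used desmocollin, was at 217 and 209 CPM in vivo, 151 and 137 CPM in 2D, 191 and 150.0 CPM in D3 organoids, and 157 and 146 CPM in D7 organoids. Both in vivo libraries were above the other 6, which overlapped. Dsc2 fell in 2D by 0.57 (SE 0.16, adjusted p = 0.0085) and in D7 organoids by 0.49 (SE 0.16, adjusted p = 0.023). The first call was lost without 2D replicate 2 (-0.49, adjusted p = 0.075) and the second without any 1 of the 4 libraries compared (adjusted p between 0.052 and 0.16). In D3 organoids the difference from in vivo TECs was -0.32 (95% interval -0.66 to 0.01, adjusted p = 0.15).

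Dsc3, the desmocollin of basal layers, was at 113 and 90.0 CPM in vivo, 34.9 and 29.9 CPM in 2D, 78.1 and 91.6 CPM in D3 organoids, and 114 and 105 CPM in D7 organoids. The 2D libraries were the lowest, and in vivo TECs overlapped with both organoid groups. Dsc3 fell 3.13-fold in 2D against in vivo TECs (log2 -1.65, SE 0.19, adjusted p = 1.7e-06). It was higher in organoids than in 2D by 1.39 on day 3 (SE 0.19, adjusted p = 1.5e-05) and by 1.76 on day 7 (SE 0.19, adjusted p = 8.8e-07), and no other member passed the threshold as higher in organoids than in 2D under the TMM scaling. Against in vivo TECs, D3 organoids differed by -0.26 (95% interval -0.63 to 0.12, adjusted p = 0.31) and D7 organoids by 0.11 (-0.26 to 0.48, adjusted p = 0.67).

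Dsg3 and Dsc3, both cadherins of basal layers, therefore changed in opposite directions in 2D. The ratio of Dsg3 to Dsg2 within a library was 0.125 to 0.132 in 2D, against 0.00417 to 0.0339 in the other groups. The ratio of Dsc3 to Dsc2 was 0.219 to 0.232 in 2D, 0.430 to 0.522 in vivo, 0.408 to 0.610 in D3 organoids and 0.721 to 0.725 in D7 organoids. The ratio of Dsg2 to Dsc2, chosen after the values were seen, was 2.94 to 3.27 in 2D, 1.25 to 1.29 in vivo and 0.830 to 1.06 in organoids. The ratios are descriptions without a test, and they compare groups, not the abundance of one gene with another. The summed CPM of the 4 cadherins was 588 ± 23.9 in vivo, 678 ± 8.21 in 2D, 416 ± 22.02 in D3 organoids and 414 ± 6.04 in D7 organoids (SD, n = 2 each).

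**Figure D2:**
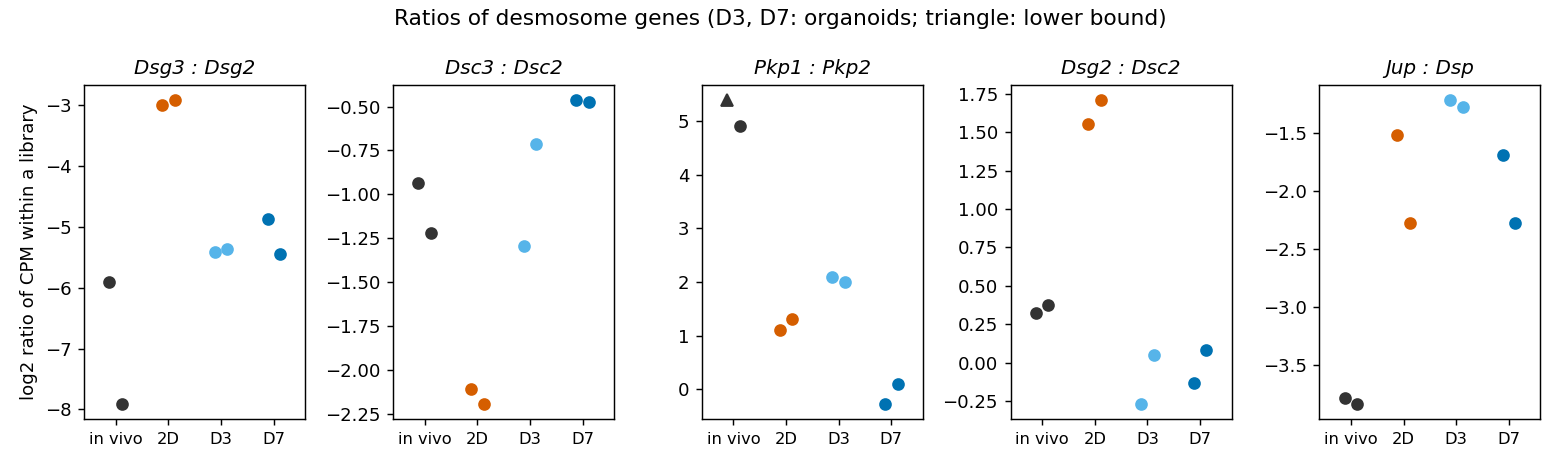
Log2 ratios of CPM between desmosome genes within each library, 1 panel per pair; each point is a library, and the triangle in the Pkp1 to Pkp2 panel is a lower bound for the in vivo library with 0 counts of Pkp2. Dsg3 to Dsg2 and Dsg2 to Dsc2 were highest in 2D, and Dsc3 to Dsc2 was lowest there.

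Dsp, whose product desmoplakin anchors keratin filaments, was at 799.8 and 994 CPM in vivo, 469 and 673 CPM in 2D, 227 and 233 CPM in D3 organoids, and 252 and 331 CPM in D7 organoids. Its order was in vivo, 2D, D7 organoids and D3 organoids, with no overlap between neighbours, although the 2 organoid groups did not differ past the threshold (0.34, 95% interval -0.05 to 0.73, adjusted p = 0.22). Against in vivo TECs, Dsp fell 3.90-fold in D3 organoids (log2 -1.96, SE 0.19, adjusted p = 4.2e-07) and 3.08-fold in D7 organoids (log2 -1.62, SE 0.19, adjusted p = 3.8e-06). It fell 1.57-fold in 2D (log2 -0.65, SE 0.18, adjusted p = 0.0086). The call in 2D was lost without in vivo replicate 2 (-0.48, adjusted p = 0.1) or 2D replicate 1 (-0.41, adjusted p = 0.15). Dsp made up 47.2% to 51.7% of the members' summed CPM in vivo and 21.3% to 31.4% in the 6 cultured libraries.

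Jup, whose product plakoglobin binds cadherin tails in desmosomes and in adherens junctions, was at 58.1 and 69.8 CPM in vivo, 163 and 139 CPM in 2D, 97.7 and 96.3 CPM in D3 organoids, and 78.2 and 68.4 CPM in D7 organoids. It was highest in 2D and next in D3 organoids, and D7 organoids overlapped with in vivo TECs. Jup rose 2.36-fold in 2D (log2 1.24, SE 0.17, adjusted p = 1.6e-05). It rose by 0.60 in D3 organoids (SE 0.17, adjusted p = 0.014), a call lost without in vivo replicate 1 (0.47, adjusted p = 0.12) or D3 replicate 1 (0.59, adjusted p = 0.057). In D7 organoids the difference from in vivo TECs was 0.20 (95% interval -0.17 to 0.56, adjusted p = 0.41). The ratio of Jup to Dsp, also chosen after the values were seen, was 0.0702 to 0.0727 in vivo and 0.206 to 0.430 in culture.

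Pkp1, the plakophilin of stratified epithelium, was at 21.9 and 29.8 CPM in vivo, 127 and 146 CPM in 2D, 15.9 and 7.83 CPM in D3 organoids, and 3.598 and 5.93 CPM in D7 organoids. No groups overlapped, and it was the member that passed the threshold in all 6 comparisons. Against in vivo TECs, it rose 5.27-fold in 2D (log2 2.40, SE 0.27, adjusted p = 1.5e-06) and fell 5.62-fold in D7 organoids (log2 -2.49, SE 0.33, adjusted p = 1.6e-05). The fall in D3 organoids was -1.15 (SE 0.29, adjusted p = 0.0068), and it was -0.90 without in vivo replicate 2 (adjusted p = 0.066), -0.64 without D3 replicate 2 (adjusted p = 0.14) and -1.73 without D3 replicate 1 (adjusted p = 0.0017). From D3 to D7 organoids it fell by 1.34 (SE 0.35, adjusted p = 0.011), which was lost without D3 replicate 1 (-0.77, adjusted p = 0.19) or D7 replicate 1 (-0.98, adjusted p = 0.13).

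Pkp2, the plakophilin of simple epithelia and heart, was nearly undetected in vivo, with 0 and 7 counts (0 and 0.987 CPM). It was at 59.3 and 58.8 CPM in 2D, 3.72 and 1.96 CPM in D3 organoids (22 and 14 counts), and 4.34 and 5.54 CPM in D7 organoids (35 and 28 counts). The 2D libraries were far above the rest, and both organoid groups were above in vivo TECs without overlap. The fitted log2 fold change over in vivo TECs was 6.72 in 2D (SE 0.52, adjusted p = 1.3e-08), 2.33 in D3 organoids (SE 0.66, adjusted p = 0.014) and 3.13 in D7 organoids (SE 0.61, adjusted p = 0.00074). A count of 0 in in vivo replicate 1 allows up to 3 counts (0.522 CPM), for counting error alone, and replicate 2 lay above that level. Without in vivo replicate 1 the fitted values were 5.87, 1.47 and 2.27 in the same order, and the D3 call was lost (adjusted p = 0.082). It was also lost without D3 replicate 1 (1.82, adjusted p = 0.13) and with limma-voom, the study's own method (3.02, adjusted p = 0.072). Without in vivo replicate 2, the in vivo group has no counts, and the fitted values of 11.50, 7.11 and 7.89 are no bound.

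Pkp3, the plakophilin found in most epithelial desmosomes, was at 50.7 and 35.1 CPM in vivo, 70.2 and 65.7 CPM in 2D, 38.2 and 31.3 CPM in D3 organoids, and 53.1 and 70.4 CPM in D7 organoids. 2D and D7 libraries overlapped in the upper range, and D3 and in vivo libraries in the lower. Pkp3 rose in 2D by 0.67 (SE 0.22, adjusted p = 0.02), a call lost with no normalization (0.49, adjusted p = 0.078) and without in vivo replicate 2 (0.43, adjusted p = 0.17) or either 2D library (adjusted p = 0.098 without replicate 1 and 0.056 without replicate 2). It was higher in D7 than in D3 organoids by 0.83 (SE 0.22, adjusted p = 0.013), which was lost without D3 replicate 2 (0.62, adjusted p = 0.14) or D7 replicate 2 (0.62, adjusted p = 0.16). Its difference between D7 organoids and in vivo TECs was 0.52 (95% interval 0.07 to 0.98, adjusted p = 0.07), and passed the threshold with limma-voom (adjusted p = 0.046), with no filter (0.56, adjusted p = 0.044), with the replicate number as a block (adjusted p = 0.042) and without in vivo replicate 1 (0.80, adjusted p = 0.025) or D7 replicate 1 (0.72, adjusted p = 0.045). Without in vivo replicate 2 it was 0.27 (adjusted p = 0.4).

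The plakophilins therefore differed in how they ranked across groups. Pkp1 and Pkp2 rose together in 2D, while in D7 organoids Pkp2 was above in vivo TECs and Pkp1 below them. The ratio of Pkp1 to Pkp2 was 30.1 in in vivo replicate 2 and at least 42.0 in replicate 1, 2.14 to 2.49 in 2D, 4 to 4.27 in D3 organoids and 0.829 to 1.07 in D7 organoids. The summed CPM of the 5 plaque genes was 1030 ± 141 in vivo, 986 ± 137 in 2D, 377 ± 8.69 in D3 organoids and 437 ± 63.7 in D7 organoids (SD, n = 2 each).

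Perp, a tetraspan membrane protein that p53 and p63 switch on and that stratified epithelia need for desmosome assembly, was at 159 and 221 CPM in vivo, 472 and 391 CPM in 2D, 252 and 268 CPM in D3 organoids, and 246 and 232 CPM in D7 organoids. The 2D libraries were the highest and the in vivo libraries the lowest, with the organoids between them and no overlap. Perp rose 2.27-fold in 2D (log2 1.18, SE 0.17, adjusted p = 2.6e-05). In D3 organoids it differed from in vivo TECs by 0.45 (SE 0.17, adjusted p = 0.056) and in D7 organoids by 0.33 (95% interval -0.03 to 0.69, adjusted p = 0.14). The D3 difference passed the threshold with limma-voom (adjusted p = 0.027), with DESeq2 (adjusted p = 0.032) and with the replicate number as a block (adjusted p = 0.034), and its adjusted p ran from 0.007 to 0.44 over the alternatives. Without in vivo replicate 2, both the D3 difference (adjusted p = 0.013) and the D7 difference (0.59, adjusted p = 0.03) passed it.

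**Figure D3:**
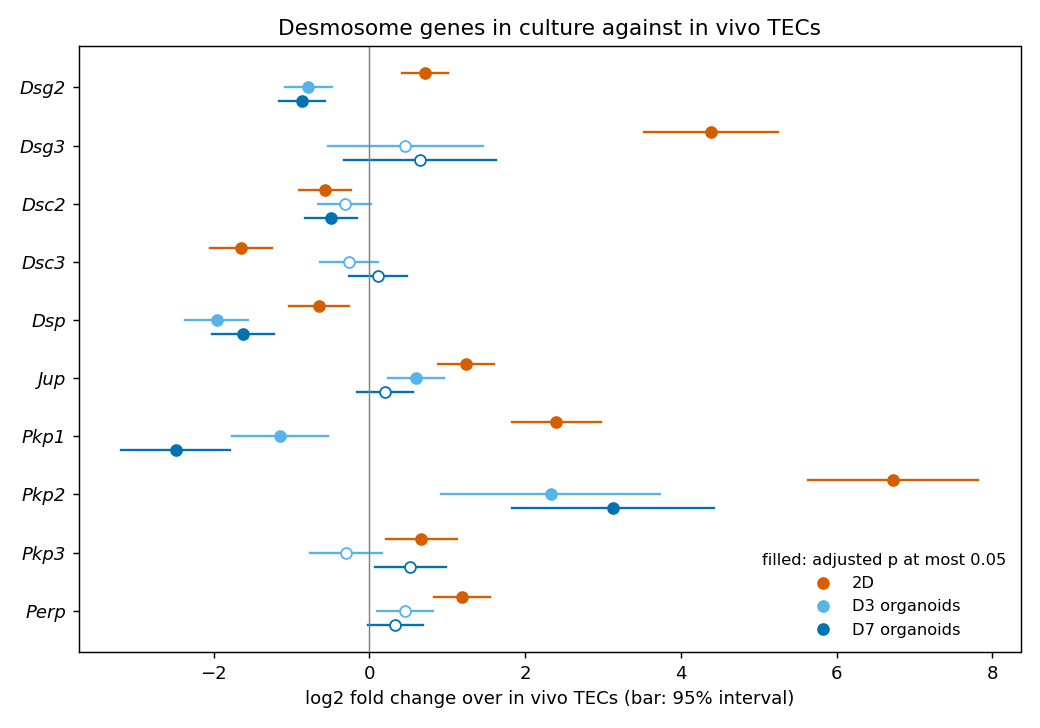
Log2 fold changes of the 10 desmosome genes over in vivo TECs (points, with 95% intervals as bars) for 2D-cultured TECs, D3 organoids and D7 organoids; filled points have an adjusted p of at most 0.05. All 10 points for 2D are filled, 7 to the right of 0 and 3 to the left, against 5 for each day of organoids.

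In D3 organoids 5 members passed the threshold, with Jup and Pkp2 higher and Dsg2, Dsp and Pkp1 lower, beside 28.2% of all genes (14.1% higher and 14.0% lower). For 7 members the D3 and in vivo libraries did not overlap, beside 61.6% of all genes, and the median log2 fold change was -0.28 over the members and -0.01 over all genes. In D7 organoids 5 members passed, with Pkp2 higher and Dsg2, Dsc2, Dsp and Pkp1 lower, beside 34.8% of all genes (18.0% higher and 16.8% lower). For 7 members these groups did not overlap, beside 69.9% of all genes, and the medians were 0.15 and 0.01. These comparisons share the in vivo libraries, and the thymocyte and cortical sums given above were higher in those libraries than in every cultured one. CPM is relative to all RNA counted in a library, and the part of other cells in these differences was not tested.

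In the comparison between the 2 kinds of culture, the fold changes are between cultured libraries, and the in vivo libraries enter through the shared estimate of spread. D3 organoids differed from 2D in 9 members, Dsc3 higher and 8 lower, beside 38.3% of all genes (19.3% higher and 19.1% lower). For 9 members the libraries did not overlap, beside 69.2% of all genes, and the median was -1.14 over the members and 0.03 over all genes. D7 organoids differed from 2D in 8 members, Dsc3 higher and 7 lower, beside 45.5% of all genes (24.4% higher and 21.1% lower). For 8 members the libraries did not overlap, beside 75.8%, and the medians were -1.0 and 0.10. Both comparisons use the same 2D libraries, whose medullary marker sum was above that of every organoid library. Dsc2 did not pass the threshold on either day (0.25 on day 3, 95% interval -0.09 to 0.59, adjusted p = 0.24, and 0.08 on day 7, -0.26 to 0.41, adjusted p = 0.73), and Pkp3 missed it on day 7 (-0.14, -0.59 to 0.31, adjusted p = 0.62).

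Among the members, the largest differences between organoids and 2D were those of Pkp1, Pkp2 and Dsg3. Pkp1 was 11.7-fold lower in D3 organoids (log2 -3.54, SE 0.29, adjusted p = 4.4e-08) and 29.6-fold lower in D7 organoids (log2 -4.89, SE 0.33, adjusted p = 2.8e-09). Pkp2 was 21.1-fold lower (log2 -4.40, SE 0.41, adjusted p = 2.1e-07) and 12.1-fold lower (log2 -3.59, SE 0.38, adjusted p = 8.9e-07) in the same order. Dsg3 was 15.2-fold lower (log2 -3.92, SE 0.39, adjusted p = 4e-07) and 13.3-fold lower (log2 -3.73, SE 0.38, adjusted p = 5.3e-07). Dsp and Perp were lower by smaller amounts, Dsp by -1.31 on day 3 (adjusted p = 2.7e-05) and -0.97 on day 7 (adjusted p = 0.00041), and Perp by -0.73 (adjusted p = 0.0024) and -0.85 (adjusted p = 0.00059). Jup was lower by -1.04 on day 7 (adjusted p = 9.6e-05) and by -0.64 on day 3 (adjusted p = 0.0062), the latter call being lost with no normalization (-0.38, adjusted p = 0.098) or without 2D replicate 1 (-0.52, adjusted p = 0.07). With no normalization, the Perp difference on day 3 was -0.47 (adjusted p = 0.044).

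Between D7 and D3 organoids, 2 members differed, Pkp3 higher and Pkp1 lower, beside 20.8% of all genes (10.9% higher and 9.91% lower). The libraries did not overlap for 8 members, beside 64.7% of all genes, and the medians were 0.05 and 0.06. Summed over the 10 members, CPM was 1808 ± 161 in vivo, 2095 ± 71.4 in 2D, 1053 ± 19.1 in D3 organoids and 1089 ± 47.8 in D7 organoids (SD, n = 2 each). The sums of the 4 groups were in the order 2D, in vivo, D7 and D3 organoids, and the organoid sums overlapped with each other and with no other group.

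Other genes of the junction and of its surroundings were taken as lists. Their counts against in vivo TECs stand beside the shares of all genes tested, which were 19.9% higher and 21.7% lower in 2D, 14.1% and 14.0% in D3 organoids, and 18.0% and 16.8% in D7 organoids, with medians of -0.06, -0.01 and 0.01. Of 6 further desmosomal genes (Dsg1a, Dsg1b, Dsg1c, Dsg4, Dsc1 and Pkp4), the filter kept Pkp4, a plakophilin relative of both junction types, which fell in D3 organoids against in vivo TECs (-0.80, SE 0.18, adjusted p = 0.0031) and not past the threshold in 2D (-0.15, adjusted p = 0.53) or D7 organoids (0.34, adjusted p = 0.16). Dsg1a, a desmoglein of upper epidermal layers, had 28 and 30 counts in vivo and 0 in the other 6 libraries. Dsg1b had 23 and 18 counts in vivo, 1 and 0 in 2D and 0 in the organoids. These close copies lie in the same gene family, and how reads shared between them were counted is not given in the sources used here.

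Keratins, the filaments that desmosomes hold, rose in 2D against in vivo TECs for 8 of 11 genes tested and fell for 1, with a median of 1.42. Krt7, a keratin of simple epithelia, went from 34.5 and 23.3 CPM in vivo to 1745 and 1744 CPM in 2D (5.92, SE 0.25, adjusted p = 8.1e-12). Krt8 and Krt18, the keratin pair of simple epithelia, rose by 1.19 (adjusted p = 1.5e-05) and 0.95 (adjusted p = 2.6e-05) in 2D and fell by 2.49 (adjusted p = 8.9e-09) and 1.83 (adjusted p = 2.9e-08) in D7 organoids. The rise in 2D was not confined to keratins of simple epithelia. Krt5 and Krt14, medullary markers named above, had means of 694 and 983 CPM in 2D against 259 and 21.1 CPM in vivo. In D3 organoids 4 of the 11 keratins rose and 3 fell against in vivo TECs, in D7 organoids 2 rose and 4 fell, and against 2D 10 of 11 were lower in D7 organoids, beside 21.1% of all genes.

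Of 10 adherens junction genes, 7 rose and 1 fell in 2D (median 1.76), 5 rose and 0 fell in D3 organoids (median 0.48), and 3 rose and 5 fell in D7 organoids against in vivo TECs (median -0.08). Over all genes, 41.6%, 28.2% and 34.8% passed in either direction. Those that rose in D3 organoids were 3 without in vivo replicate 1 and 2 without D3 replicate 1, and those that fell in D7 organoids were 3 without in vivo replicate 1 and 2 without D7 replicate 2. Ctnna1, which links cadherins to actin, rose in 2D by 1.76 (adjusted p = 1.4e-07), while for Ctnnb1, which encodes the close relative of plakoglobin, beta-catenin, the difference was 0.11 (SE 0.14, adjusted p = 0.55). Of 9 hemidesmosome genes, which fix cells to the matrix below, 6 rose and 1 fell in 2D (median 1.46), and 3 rose and 3 fell in D7 organoids. Dst, whose epithelial product ties keratins to hemidesmosomes, fell in 2D by 0.84 (adjusted p = 0.0061), in D3 organoids by 3.25 (adjusted p = 2.4e-08) and in D7 organoids by 2.85 (adjusted p = 1.1e-07). Like Dsp, a plakin gene of the same family, it was lower in all 3 cultures than in vivo, and its call in 2D was lost without in vivo replicate 2 or 2D replicate 1, when 0 of the 9 genes fell. The tetraspanin gene Cd151 rose in all 3, by 1.46, 1.06 and 0.99 in the same order (adjusted p = 1.5e-06, 8.6e-05 and 0.00015).

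Among 5 envelope and plaque partners tested, 2 rose and 3 fell in 2D. Ppl, which encodes the plakin periplakin, rose by 3.95 in 2D (adjusted p = 1.3e-09), 1.61 in D3 organoids (adjusted p = 0.00013) and 1.65 in D7 organoids (adjusted p = 9.1e-05). Kazn fell in all 3 (-0.94, -1.44 and -0.79, adjusted p = 0.0007, 1.8e-05 and 0.0033). Of 9 turnover and signalling genes, 5 rose and 0 fell in 2D, and Adam10, a protease that cuts cadherins at the cell surface, rose in 2D (0.65, adjusted p = 0.008) and D3 organoids (1.18, adjusted p = 8.6e-05). Between 2 and 3 of the 9 rose in 2D with no normalization or without 2D replicate 2, in vivo replicate 1 or in vivo replicate 2.

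Of 13 epithelial regulators, 7 rose and 3 fell in 2D, 5 rose and 4 fell in D3 organoids, and 6 rose and 2 fell in D7 organoids, with medians of 1.18, 0.24 and 0.62. These counts stand beside the 41.6%, 28.2% and 34.8% of all genes called. Klf5, a transcription factor of epithelial growth, rose by 2.19 in 2D (adjusted p = 2.8e-07), 1.45 in D3 organoids (adjusted p = 5.6e-05) and 2.65 in D7 organoids (adjusted p = 6.1e-08). Trp63, which encodes p63, was named after its values were seen, as the regulator of Perp. It was at 115 and 136 CPM in vivo, 14.2 and 14.3 CPM in 2D, 75.9 and 73.5 CPM in D3 organoids, and 76.3 and 66.6 CPM in D7 organoids. Trp63 fell in 2D by 3.14 (SE 0.20, adjusted p = 9.7e-10), where 7 members rose, Perp and Dsg3 among them, and 3 fell, Dsc3 among them. It fell by 0.75 and 0.81 in D3 and D7 organoids (adjusted p = 0.003 and 0.0014). The part of Trp63 in the changes of the members was not tested. Of 6 regulators and markers of the epithelial-mesenchymal transition tested, 1 rose and 2 fell in 2D, and 1 rose and 3 fell in organoids of either day. Cdh2, the N-cadherin gene, was the 1 that rose in organoids, from 2.61 and 1.55 CPM in vivo to 20.8 and 14.3 CPM in D3 (3.08, adjusted p = 4e-05) and 13.4 and 12.9 CPM in D7 organoids (2.67, adjusted p = 0.00017). Snai2, a repressor of cadherin genes, fell in 2D by 2.69 (adjusted p = 1.2e-09). It was lower in organoids too, at 126 and 113 CPM in D3 and 82.6 and 68.6 CPM in D7 organoids, against 258 and 253 CPM in vivo. Vim rose in 2D by 1.04 (adjusted p = 0.00073) and fell in D7 organoids by 3.54 (adjusted p = 1.5e-08).

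**Figure D4:**
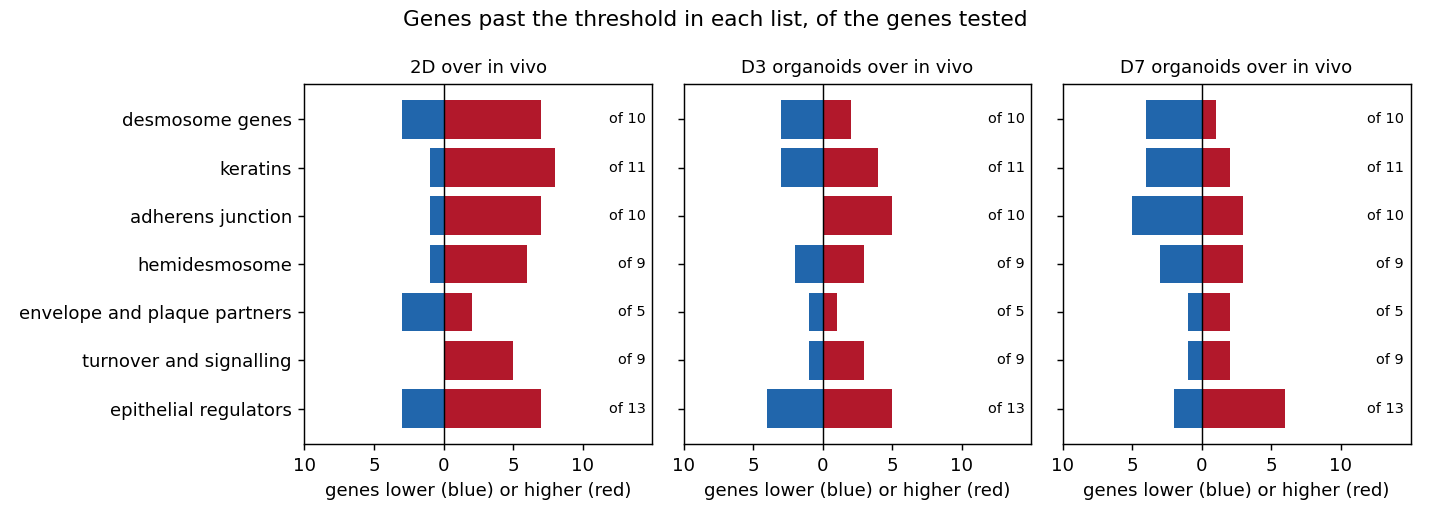
Number of genes past an adjusted p of 0.05 against in vivo TECs in each list, higher to the right in red and lower to the left in blue, with the number tested at the right edge. In 2D, the desmosome genes had 7 higher and 3 lower of 10, the keratins 8 and 1 of 11, and the adherens junction genes 7 and 1 of 10.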

How the data were processed

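The study measured RNA by QuantSeq, a 3′ method that reads transcript ends, on a NextSeq 500. The authors aligned reads to GRCm39 with STAR 2.7.0e and deposited whole-number counts per Ensembl gene for each library, without normalization. The submitters' processing notes also name R 4.1.2. The annotation release, the strand setting and the handling of reads with several matches are not given in the sources used here. Symbols and positions came from GENCODE vM39, which matched 56236 of the gene IDs and left 687 unmatched.

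The filter asked for 1 CPM or more in 3 or more of the 8 libraries and kept 14504 genes, and library sizes were scaled by TMM (factors 0.880 to 1.09). All 6 comparisons of the 4 groups were made in one model with edgeR's quasi-likelihood test (edgeR 4.0.16, R 4.3.3), with Benjamini-Hochberg adjustment over all genes tested and a threshold of 0.05. Replicates differed by more than sampling noise (chi-square per degree of freedom 7.43 to 9.42). On simulated counts for 2D over in vivo TECs (14087 genes, 200 changed), the test called 62% of the 2-fold and 95% of the 4-fold changes and 4 genes without a change. Far fewer genes changed there than the 41.6% called in the data for this comparison, so these rates need not hold for the data. A count of 3 was the limit that a count of 0 allows; it covers counting error only.

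The members, the lists and the alternatives were chosen with earlier results of these data known. Named were all 10 members, up to 3 genes of each other list with the highest mean CPM, and the 5 genes most like the members' mean profile. One gene that this rule names is not reported here. Ratios were within a library with no pseudocount. As alternatives, the test was run with DESeq2's size factors, no normalization, DESeq2 1.42.0, limma-voom (limma 3.58.1, the study's own test), no filter, a mean of at least 10 CPM, ribosomal RNA genes left out, a log2 limit of 1, the 2 compared groups alone, the replicate number as a block, and each library left out. Motif searches and figures used Python 3.11.15, pandas 2.3.3 and matplotlib 3.10.9.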

Additional observations from a re-analysis of the deposited data

Results flagged for a closer look

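Of the members, 2 passed the threshold in opposite directions against in vivo TECs in the 2 kinds of culture. How many of all genes tested had this pattern was not counted. The difference between the cultures adds up the 2 opposite changes, so its passing the test is no separate support. Dsg2 was higher in 2D and lower in organoids than in vivo, and organoids differed from 2D by -1.50 on day 3 and -1.58 on day 7 (log2, adjusted p = 2.7e-07 and 1.3e-07). Pkp1 had the same pattern, with differences of -3.54 on day 3 and -4.89 on day 7 (adjusted p = 4.4e-08 and 2.8e-09). The fall of Pkp1 in D3 organoids against in vivo TECs (-1.15) was smaller without in vivo replicate 2 (-0.90) or D3 replicate 2 (-0.64). Its call depended on each of these libraries. With 2 libraries in a group, no library could be tested as standing apart from the rest of its group.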

How the results depend on the processing

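Of 537 member values under other settings, 522 kept their direction and side of the threshold, 3 lost the call, 11 gained one and 1 changed sign. Of 480 with 1 library left out, the numbers were 446, 21, 6 and 7. The changes of sign were in differences that were not called, and their cause was not tested. With 1 library left out, Dsg3 ran from -0.26 to 1.71 in D3 and from -0.0831 to 1.90 in D7 organoids over in vivo TECs and from -0.0725 to 0.37 in D7 over D3 organoids. Dsc2 ran from -0.0026 to 0.14 in D7 organoids over 2D and from -0.40 to 0.0118 in D7 over D3 organoids, Dsc3 from -0.0520 to 0.27 in D7 organoids over in vivo TECs, and Pkp3 from -0.35 to 0.0511 in D7 organoids over 2D, where no normalization gave 0.0548.

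With a log2 limit of 1 added, members lower in 2D than in vivo were 1, higher in D3 organoids 1, lower in D7 organoids 2, lower in D3 organoids than 2D 5 and higher in D7 than D3 organoids 0. The share of all genes past this limit was not computed, so these counts are set only against those without the limit. With the 2 compared groups alone, 1 member was higher in D3 and 0 in D7 organoids than in vivo, since Pkp2 then failed the filter. Pkp2 failed it in the same way for 2D against in vivo TECs. With limma-voom and with no filter, 2 were higher in D7 organoids than in vivo. No normalization made 2 higher in D3 organoids than in 2D, and moved the median of all genes by -0.18 (2D over in vivo), 0.26 (D3 organoids over 2D) and 0.20 (D7 organoids over 2D), with the share of calls that were higher going from 47.8% to 36.9%, 50.3% to 67.2% and 53.7% to 65.2%. With 1 library left out, members higher in D3 organoids than in vivo numbered 0 to 3, higher in D7 organoids than in vivo 1 to 3, higher in D7 than D3 organoids 0 to 1 and lower 0 to 1. Dsc2 in D3 organoids over 2D passed the threshold with no normalization (0.51, adjusted p = 0.02).

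With the replicate number as a block, 3 members were higher in D3 and 2 in D7 organoids than in vivo, and the other counts of members called did not change. Over all genes, more were called with the block in each of the 6 comparisons, such as 6366 against 6033 for 2D over in vivo TECs and 3587 against 3012 for D7 over D3 organoids. The labels do not say what a shared number marks. The deviations of same-numbered libraries correlated at 0.0376 to 0.149 over the 6 pairs of groups, all positive and 3 above 0.1, with 2 numbers in all, so whether the numbers pair the libraries is not known.

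The other lists were put through these alternatives after the data were seen. Of 1728 list counts under other settings, 115 moved by over 1.5 times, and 98 of 1536 did with 1 library left out.

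Summed CPM of the members with no normalization was 1872 in 2D and 1128 in D3 organoids. With ribosomal RNA genes left out it was 2403 in vivo, 2892 in 2D, 1474 in D3 and 1456 in D7 organoids. Adding 0.5 CPM moved the log2 ratio in D3 organoids to -5.21 for Dsg3 to Dsg2 and 1.86 for Pkp1 to Pkp2. Counts of 0 to 35 limit Pkp2 outside 2D, and 8 to 39 limit Dsg3 there.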

Other observations

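Of 9007 genes with a mean of at least 10 CPM, those whose values across the 8 libraries were most like the mean of the members were Ccdc68 (Pearson's r = 0.995), Basp1 (0.994), Pmepa1 (0.994), Nhsl3 (0.993) and Iqgap1 (0.993). The measure was log2(CPM + 1), the libraries form 4 groups, and r is given as a description over 8 libraries with no p. The mean of the members was highest in 2D, where Dsc2, Dsc3 and Dsp fell, so likeness to it is not likeness to each member. Between members, r was -0.912 for Dsg3 and Dsc3 and 0.967 for Jup and Perp. On that scale Ccdc68 was at 6.03 and 6.13 in 2D and between 2.48 and 3.11 elsewhere, and Iqgap1, a scaffold protein of the actin cytoskeleton, was at 9.63 and 9.90 in 2D and between 7.55 and 7.98 elsewhere.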
